A study of Mus musculus with 183 samples.

Results

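The replication-dependent histone H3 mRNAs of the Hist1 cluster are encoded by 9 genes, Hist1h3a to Hist1h3i, which were taken by symbol from the 53380 genes with counts. All 9 passed the filter on low counts in every comparison below. RNA was sequenced from mouse embryonic stem cells (mESCs) of 2 lines before and after block of transcription by actinomycin D, and the 47 libraries with deposited counts are used here out of 183 samples in the series. Clone 5F is Rosa26 Cre-ERT2/- Skiv2l fl/fl, and clone 7E is Aven-/- with Rosa26 Cre-ERT2/BirA-V6 (BirA-V5 in the study's cell line table) and 3xFLAG-Avi tagged Skiv2l, which the study's methods also give as Skiv2l fl/fl. Each line was untreated (day 0) or given 0.1 µM 4-hydroxytamoxifen (4OHT), which activates the Cre-ERT2 recombinase, for 4 days (day 4). It was then collected after mock treatment or 120, 240 or 360 min of actinomycin D. By the study's methods the mock was held for 360 min with DMSO in place of actinomycin D, and it stands for time 0 here. Each group has 3 libraries, except clone 5F at day 0 and 120 min, which has 2 (replicates 1 and 3). The replicates are technical repeats of 1 clone each, so p-values measure the spread between libraries only. The Aven genotype, the tag, the clone and the lower Skiv2l level of 7E at day 0 cannot be told apart.

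Replication-dependent histone mRNAs are made in S phase and, unlike other mRNAs, end in a conserved stem-loop instead of a poly(A) tail. The stem-loop is bound by SLBP, and the mRNAs are removed rapidly, from both ends, when DNA synthesis stops or S phase ends. SKIV2L is the helicase of the Ski complex, which feeds mRNAs into the cytoplasmic exosome for 3′–5′ decay; AVEN is an RNA-binding protein that the study examined together with the Ski complex, and XRN1 is the cytoplasmic 5′–3′ exonuclease. H3.1 and H3.2 are the histone H3 forms laid down during replication, whereas H3.3, from the polyadenylated H3f3a and H3f3b mRNAs, is used throughout the cell cycle.

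Total counts ranged from 24540658 to 34208466 per library. The targeted gene, Skiv2l, had a mean mock level of 147.1 ± 0.27 CPM (counts scaled to a common library total; SD, n = 3) in 5F at day 0 and of 142.5 ± 10.3 CPM in the 5F libraries labelled day 4. In 7E it was 33.5 ± 2.45 CPM at day 0 and 13.0 ± 0.70 CPM at day 4. The gene count does not separate the floxed exons from the others, so it checks the 4OHT label of 5F only in part, and those libraries are called labelled day 4 throughout. Aven was at 35.5 CPM in 5F and 2.31 CPM in 7E at day 0. All 6 markers of mESCs were detected. The summed level of 4 primitive endoderm markers was 68.4 to 70.2 CPM in the 5F mock libraries of day 0 and 6.61 to 7.58 CPM in those of 7E, whereas 3 fibroblast markers summed to 1.93 to 8.43 CPM over all mock libraries, and the part of these cells in the differences between the clones was not tested. Sums of gene counts over ERCC spike-in counts were 324 to 363 in the 5F mock libraries and 312 to 322 in those of 7E at day 0, but 151 to 156 in those of 7E at day 4.

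The 3′ ends of the genes carry the element that sets these mRNAs apart, and it is shown here in its main variants. Sequences and coordinates are of GRCm38 as given by RefSeq, 5′ to 3′ on the strand of the gene, with the 16 bases of the stem-loop in capitals and 5 bases on each side in lower case. In the 5 Hist1 genes shown the stem-loop lies in exonic sequence after the stop codon, and the model of Hist2h3b ends within it.
Hist1h3a, chr13:23761885-23761910, minus strand: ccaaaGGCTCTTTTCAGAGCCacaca
Hist1h3d, chr13:23576239-23576264, plus strand: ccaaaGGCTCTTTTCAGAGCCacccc
Hist1h3c, chr13:23745042-23745067, minus strand: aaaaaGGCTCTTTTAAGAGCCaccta
Hist1h3f, chr13:23544927-23544952, plus strand: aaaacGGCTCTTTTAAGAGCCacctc
Hist1h3g, chr13:23535884-23535909, plus strand: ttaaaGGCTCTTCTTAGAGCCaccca
Hist2h3b, chr3:96269130-96269155, plus strand: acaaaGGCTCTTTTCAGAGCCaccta

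The stem-loop of Hist1h3a and Hist1h3d is also that of Hist1h3b, Hist1h3h and Hist1h3i, and of Hist2h3b, an H3 gene of another cluster that is used below for comparison. Hist1h3e shares the whole printed stretch with Hist1h3f, and Hist1h3g has a form of its own. The stem-loop began 24 to 37 bases after the stop codon in the 9 genes. The pattern searched was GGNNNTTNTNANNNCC, on both strands of the 200 bases after the stop codon, and a match was found for 187 of 21911 protein-coding genes (0.853%), 62 of which are histone genes. A match describes the letters only.

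The 9 genes have a single exon each and lie on chromosome 13. RefSeq gives the product of Hist1h3a, Hist1h3g, Hist1h3h and Hist1h3i as histone H3.1 and that of the other 5 as histone H3.2. Coding sequences of 411 bases were 96.81 to 99.26% identical over the 36 pairs of genes (median 97.79%), with Hist1h3g and Hist1h3h the closest pair. Since the authors counted only reads that map to 1 place, the share of each gene that can be counted differs. Of all 50-base windows of the gene model, the share found nowhere else in the genome was 50.5% for Hist1h3a, 39.6% for Hist1h3b, 53.01% for Hist1h3c, 26.6% for Hist1h3e, 50.7% for Hist1h3f and 46.0% for Hist1h3g. It was only 6.08% for Hist1h3h and 12.4% for Hist1h3i, whose models hold the coding sequence alone. The model of Hist1h3d runs on for 752 bases past the stem-loop, and of its unique windows 77.9% lie wholly in that stretch, against 0% for Hist1h3a; where in each gene the reads fell was not analysed here. Levels are therefore compared between groups for each gene and not between genes.

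Before transcription was blocked, all 9 H3 mRNAs were abundant, and most of them were higher after 4OHT relative to other genes. Hist1h3a had normalised counts (counts with library depth removed) of 1792, 2109 and 1761 in 5F at day 0 and of 3391, 3160 and 3929 in 5F labelled day 4. In 7E it had 2276, 2833 and 2683 at day 0 and 4586, 4047 and 4531 at day 4. The groups of each clone did not overlap, and Hist1h3a showed the largest change of the 9 in both clones, by 0.89 ± 0.07 (log2, SE) in 5F and 0.76 ± 0.07 in 7E. Hist1h3h, in contrast, had 1324, 1398 and 1375 at day 0 and 1546, 1384 and 1573 at labelled day 4 in 5F, which overlap. Mean mock levels of the other members ran from 1099 ± 36.6 (SD, n = 3) for Hist1h3i in 5F at day 0 to 5532 ± 544 for Hist1h3e in 7E at day 4.

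**Figure D1:**
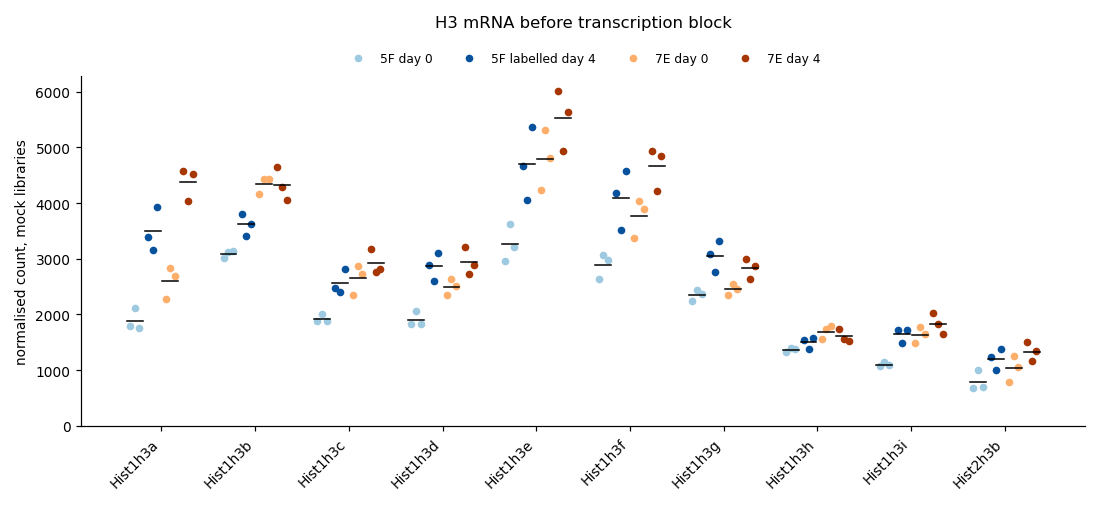
Normalised counts of the 9 H3 genes and of Hist2h3b in the mock libraries, on a linear scale from 0, with 1 point per library (3 per group, coloured by clone and day) and a bar at the group mean. In clone 5F the labelled day 4 points lie above the day 0 points for every gene but Hist1h3h and Hist2h3b, which touch; in 7E the groups are separate for Hist1h3a, Hist1h3d, Hist1h3f and Hist1h3g and touch for the others.

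In 5F, 8 of the 9 mRNAs were higher at labelled day 4 than at day 0 by edgeR's quasi-likelihood test (adjusted p under 0.05), against 12.8% of all genes tested, and the median change of the 9 was 0.50 (log2). Hist1h3h missed the threshold, at 0.14 ± 0.06 (adjusted p = 0.0904). In 7E, 5 of the 9 were higher at day 4, against 20.7% of all genes, with a median of 0.21: Hist1h3a, Hist1h3f (0.31 ± 0.06), Hist1h3d (0.24 ± 0.06), Hist1h3e (0.21 ± 0.07) and Hist1h3g (0.21 ± 0.05). This count was 1 without replicate 1. In the same 7E comparison, 5 of 6 mESC markers were lower, Esrrb the most at -0.51 ± 0.05, whereas 3 of 3 fibroblast markers (Thy1 at 1.66 ± 0.20) and 2 of 3 trophectoderm markers (Gata3 at 2.3 ± 0.25) were higher. Summed over their lists, the 7E libraries had 1.93 to 2.44 CPM of fibroblast markers at day 0 and 4.88 to 5.96 CPM at day 4, and 4.31 to 6.11 CPM and 7.84 to 8.54 CPM of trophectoderm markers, with no marker at 0. In 5F, 2 mESC markers were higher and 2 lower, and 1 fibroblast and 1 trophectoderm marker were higher. The part of these markers' cells in the H3 levels was not tested. The direction in 7E holds relative to other genes only: when each library was scaled by its own spike-ins, all 9 were lower at day 4, together with the median gene at -1.11, and 8 of the 9 stayed above that median. Hist1h3b (-0.003 ± 0.05 with the first scaling, adjusted p = 0.97) was among the members that did not pass.

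At day 0, 8 of the 9 H3 mRNAs were more abundant in 7E than in 5F, against 20.1% of all genes, with a median difference of 0.46 (log2) and the largest for Hist1h3i (0.57 ± 0.06) and Hist1h3e (0.55 ± 0.07). Hist1h3g (0.06 ± 0.05, adjusted p = 0.341) was the exception. The change with 4OHT was smaller in 7E than in 5F for 3 members by the test of the interaction, Hist1h3i (-0.41 ± 0.10), Hist1h3d (-0.35 ± 0.10) and Hist1h3b (-0.23 ± 0.07), against 5.29% of all genes with a smaller or more negative change. This count was 0 without replicate 3. With bulk RNA, more cells in S phase and more H3 mRNA per cell cannot be told apart. Of 18 S phase genes, 8 were lower after 4OHT in each clone, against 11.6% of all genes in 5F and 19.4% in 7E, including Pcna, the clamp of the replicative polymerases, at -0.17 ± 0.04 in 5F and -0.20 ± 0.05 in 7E, and 1 was higher in 7E. Of 24 genes of histone mRNA processing and turnover tested, 3 were higher and 8 lower in 5F, and 4 higher and 6 lower in 7E, beside 12.8% of all genes higher and 11.6% lower in 5F, and 20.7% and 19.4% in 7E. Slbp, which is in both lists, differed by -0.21 ± 0.05 in 5F and -0.17 ± 0.05 in 7E, and Upf1, the helicase required for histone mRNA decay, was higher by 0.36 ± 0.05 and 0.35 ± 0.05.

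After actinomycin D the H3 mRNAs were among those that disappeared fastest in untreated cells. At 120 min, the level left at day 0, as a percentage of the mean mock level of the same clone and day, was 0.368 to 1.21% in 5F (median of the 9 genes 0.643%) and 0.588 to 3.19% in 7E (median 1.55%), whereas the median of 10970 genes was 59.4% and 59.3%. Of these genes, 0.0729 to 0.428% had less left than a given member in 5F and 0.0274 to 0.465% in 7E. These percentages rest on few reads: in the 2 libraries of 5F at day 0, raw counts of single H3 genes were 6 to 34 at 120 min. By 360 min, 0.169 to 0.446% was left in 5F and 0.172 to 0.617% in 7E.

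With 4OHT, every one of the 9 H3 mRNAs was retained at a higher level, in both clones and at all 3 times, with no overlap between the libraries of the 2 days. Of 10970 genes, 13.2% in 5F and 13% in 7E had all day 4 libraries above all day 0 libraries at 120 min, and 8.48 to 15.6% at the later times. For Hist1h3a, 0.552 and 0.347% was left at 120 min in the 2 libraries of 5F at day 0, against 24.0, 19.6 and 25.3% in those labelled day 4. In 7E it was 2.80, 3.30 and 2.69% at day 0 and 23.6, 19.7 and 23.2% at day 4. The day 4 values of the 2 clones lay in the same range, and the day 0 values did not.

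For Hist1h3d, 0.937 and 0.497% was left in 5F at day 0 and 15.1, 15.1 and 18.6% at labelled day 4. In 7E it was 3.14, 3.31 and 3.11% at day 0 and 16.4, 16.6 and 18.3% at day 4. Hist1h3d was second to Hist1h3a in both clones. Of the unique windows of Hist1h3d, 77.9% lie wholly past the stem-loop, against 0% for Hist1h3a, so these genes may have been counted on unlike parts. At the lower end, Hist1h3h had 0.762 and 0.320% in 5F at day 0 and 3.59, 2.42 and 3.93% at labelled day 4. In 7E, 0.494, 0.955 and 0.314% of Hist1h3h was left at day 0 and 3.76, 2.61 and 3.29% at day 4. The groups were separate for this gene too, but its levels stayed low. The other members had means of 3.81 to 11.6% in 5F labelled day 4 and 3.39 to 11.3% in 7E at day 4.

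**Figure D2:**
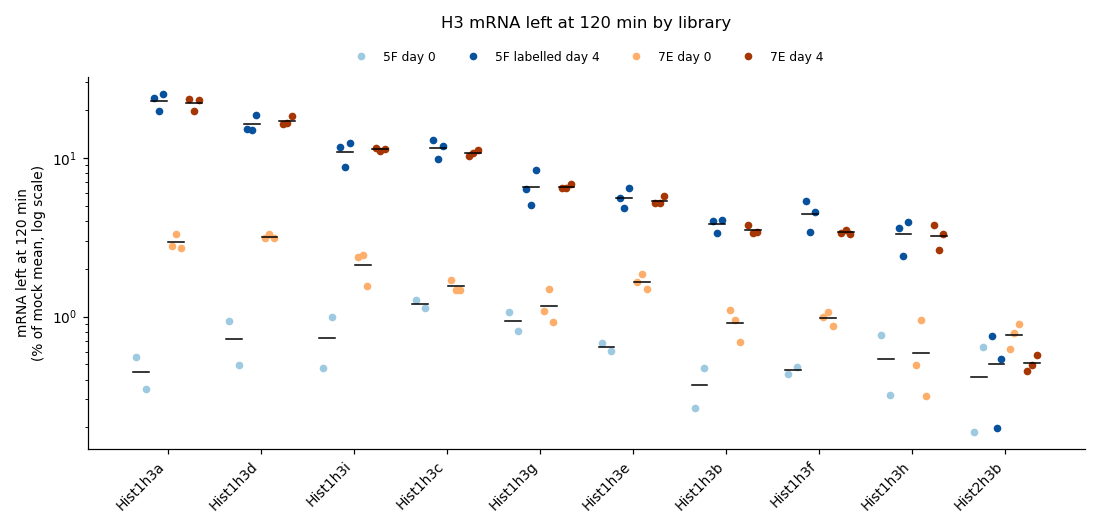
Percentage of the mock level left at 120 min of actinomycin D, on a log scale, for the 9 H3 genes in the order of their day 4 means in 7E and for Hist2h3b; each point is 1 library (2 for 5F at day 0, otherwise 3) and each bar a group mean. The dark day 4 points of both clones lie together and above the light day 0 points for all 9 genes, from 22 to 23% for Hist1h3a down to 3.2 to 3.3% for Hist1h3h, whereas for Hist2h3b the 4 groups are mixed.

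The ratio of the mean percentage left at day 4 to that at day 0 ran from 6.1 to 51.1 over the 9 genes in 5F (median 9.72) and from 3.2 to 7.6 in 7E (median 5.37). In the model across all genes, retention at 120 min, taken as the change from mock to 120 min, was higher at labelled day 4 for 9 of 9 H3 mRNAs in 5F, against 0.296% of all genes. The differences ran from 2.61 ± 0.33 (log2, SE) for Hist1h3h to 5.67 ± 0.25 for Hist1h3a, with adjusted p between 2.72e-13 and 3.66e-05. In 7E it was higher for 8 of 9, against 0.76% of all genes, from 1.68 ± 0.32 for Hist1h3e to 2.92 ± 0.21 for Hist1h3a. Hist1h3f missed the threshold in 7E, at 1.79 ± 0.50 (adjusted p = 0.0837), although its libraries did not overlap; its level at later times varied most between libraries. When 2 libraries of 7E at day 4 in which Hist1h3f stood far above its replicates, 240 min replicate 3 and 360 min replicate 2, were left out, 9 of 9 passed.

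At 120 min after 4OHT the members stood in nearly the same order in both clones. In 7E at day 4, Hist1h3a was first, then Hist1h3d, Hist1h3i, Hist1h3c, Hist1h3g, Hist1h3e, Hist1h3b, Hist1h3f and Hist1h3h, and in 5F labelled day 4 only Hist1h3i and Hist1h3c, and Hist1h3b and Hist1h3f, were exchanged; the members of each of these pairs overlapped in 5F. Spearman's rho between the 2 clones was 0.967 over the 9 genes, and 0.917 at 240 min and 0.983 at 360 min, when Hist1h3d was first and Hist1h3b last in both. In 5F the libraries of Hist1h3a, of Hist1h3d, of the pair Hist1h3c and Hist1h3i, and of the remaining 5 genes did not overlap one another, and within the last group neighbours did. At day 0 the order was shared less, with a rho of 0.267 between the clones, and in 5F neighbours overlapped all the way down from Hist1h3g. Within 7E, however, the order at 120 min at day 0 was already close to that at day 4 (rho 0.917). Within 5F, where day 0 rests on 2 libraries with few reads, this rho was 0.35. The spread between the highest and the lowest member at 120 min was 6.93-fold in 5F labelled day 4 and 6.88-fold in 7E at day 4. By the protein encoded, H3.1 genes had 3.31 to 23.0% left in 5F labelled day 4 (median 8.75%) and H3.2 genes 3.81 to 16.3% (median 5.60%). Hist1h3a and Hist1h3h, the first and the last member, carry the same stem-loop. The part of the protein or the stem-loop in the spread was not tested. Members also differ in the part of the gene that can be counted.

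At day 0 and 120 min, all 7E libraries were above all 5F libraries for 7 of the 9 genes, against 14% of all genes. This was so for 6 of 9 at 240 min, against 8.22%, and for 3 of 9 at 360 min, against 19.4%, when 5 overlapped and Hist1h3c was higher in 5F. Retention at 120 min was higher in 7E by the test for 3 members, against 0.0745% of all genes: Hist1h3a (2.70 ± 0.35, adjusted p = 5.94e-06), Hist1h3d (2.15 ± 0.27, adjusted p = 3.19e-06) and Hist1h3b (1.30 ± 0.23, adjusted p = 0.00246). Hist1h3i, at 1.52 ± 0.39 (adjusted p = 0.206), did not pass, nor did the other 5. At day 4 the libraries of the clones overlapped for 9 of 9 genes at 120 min and at 240 min and for 6 of 9 at 360 min, where those of 7E were higher for the other 3; of all genes, 84.3, 61.5 and 71.1% overlapped at these times. The gain with 4OHT was smaller in 7E for 3 genes by the interaction test, Hist1h3a (-2.75 ± 0.40), Hist1h3d (-2.08 ± 0.32) and Hist1h3b (-1.42 ± 0.27), against 0.0645% of all genes. This count was 1 without replicate 1, and 6 when no filter on low counts was used. Both comparisons share the 2 low-count libraries of 5F at day 0. The mock level of Skiv2l itself was already lower in 7E than in 5F at day 0, by -2.1 ± 0.05 (log2, SE). Its part in these differences between the clones was not tested.

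**Figure D3:**
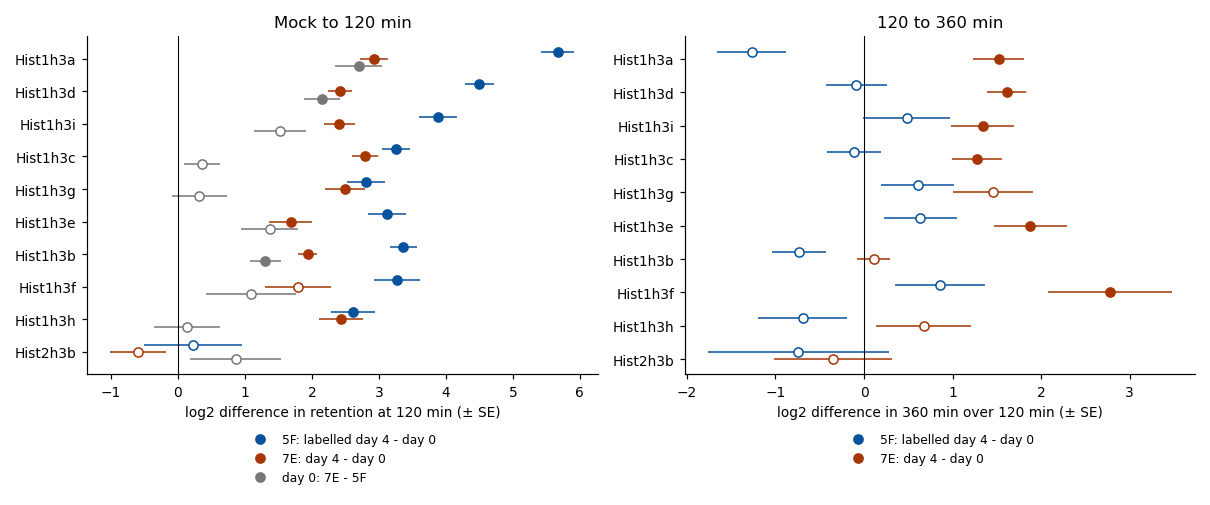
Fitted log2 differences (± SE) for the 9 H3 genes and Hist2h3b: on the left the difference in retention at 120 min, on the right the difference in the change from 120 to 360 min. Filled points passed the adjusted threshold of 0.05. On the left all 5F points of the 9 genes lie between 2.61 and 5.67 and the 7E points between 1.68 and 2.92; on the right the 5F points lie on both sides of 0 and the 7E points are all above it, apart from Hist2h3b.

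Not every H3 mRNA was retained. Hist2h3b, which encodes H3.2 and has the stem-loop of Hist1h3a, had 0.188 and 0.643% left at 120 min in 5F at day 0 and 0.757, 0.198 and 0.540% at labelled day 4. In 7E it had 0.622, 0.782 and 0.900% at day 0 and 0.453, 0.495 and 0.573% at day 4. The groups overlapped in 5F, and in 7E the day 4 libraries were the lower ones. Its differences in retention were 0.23 ± 0.73 in 5F (adjusted p = 0.986) and -0.60 ± 0.41 in 7E (adjusted p = 0.597), whereas its mock level relative to other genes rose with 4OHT by 0.59 ± 0.11 and 0.37 ± 0.11. Only 20.3% of its windows are unique, and at 120 min its raw counts were 2 to 14, so smaller gains than those of the Hist1 members were not detectable at this depth. Hist2h3c1 was at 0 counts in all libraries, and Hist2h3c2 had 29.6 to 61.4 normalised counts in mock libraries and 0 to 4 raw counts at 120 min. The H3.3 mRNAs had 57.1 to 81.4% left at 120 min in all groups, where the median gene had 57.9 to 59.4%, with differences of -0.13 ± 0.22 (H3f3a) and -0.26 ± 0.21 (H3f3b) in 5F.

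The other replication-dependent histone families moved with H3. In 5F, retention at 120 min was higher for 6 of 6 H1, 10 of 15 H2A, 14 of 17 H2B and 10 of 12 H4 genes, and in 7E for 6, 11, 14 and 10 of them. The medians were 4.85 for H1, 3.48 for H2A, 3.90 for H2B and 3.45 for H4 in 5F, beside 3.27 for the 9 H3 genes, and 2.70, 2.01, 2.61 and 2.52 in 7E, beside 2.42. Medians of the S phase list (0.03 in 5F and -0.17 in 7E) and of the processing list (-0.01 and -0.07) stood beside -0.004 and -0.02 for all genes. Of 9865 genes with a mean normalised count of at least 100, those whose level over the 47 libraries was most like that of the summed H3 members were Hist1h4k (Pearson's r 0.994 on the log2 scale), Hist1h4d, Hist1h2bj, Hist4h4 and Hist1h2bh. Outside genes with Hist1 to Hist4 symbols, Gm12260 (0.974), Rpl3 (0.971) and Pygb (0.954) came first. Histone genes were recognised by these symbols only, so one with another kind of symbol was not set apart. These libraries share the fall over time, which dominates such values.

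**Figure D4:**
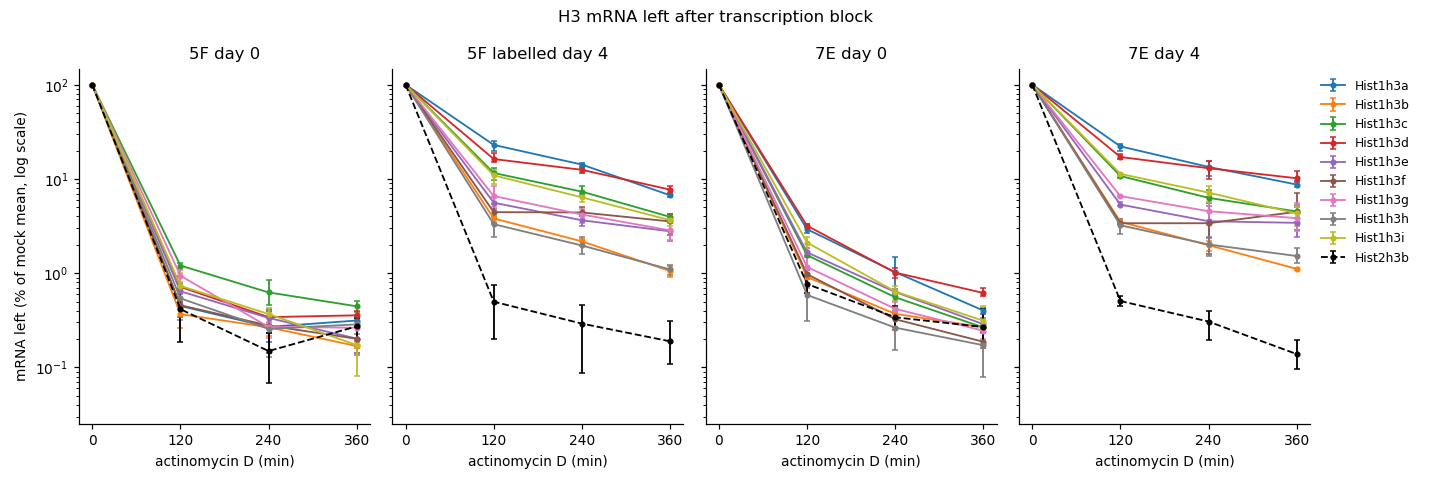
Percentage of the mock level left (log scale) against minutes of actinomycin D in the 4 groups, for the 9 H3 genes (coloured) and Hist2h3b (black, dashed); points are means of 2 or 3 libraries and bars run from the lowest to the highest library. At day 0 all lines fall to between 0.37 and 3.2% by 120 min; after 4OHT the 9 lines fan out between 3 and 23% at 120 min and are lower by 360 min, apart from Hist1h3f in 7E (3.39% and 4.49%), and Hist2h3b stays below them.

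Most of the fall took place in the interval from mock to 120 min in every group. The H3 mRNA that was left then declined 1.25- to 3.61-fold between 120 and 360 min in 5F labelled day 4 and up to 3.16-fold in 7E at day 4. In 5F the later decline did not differ with 4OHT at the adjusted threshold for any of the 9 (0 called by edgeR, DESeq2 or limma, against 0.161% of all genes in either direction; 2 had an unadjusted p under 0.05 by edgeR, Hist1h3a at -1.27 ± 0.39 and Hist1h3b at -0.73 ± 0.31). In 7E it was slower at day 4 for 6 of the 9, against 1.86% of all genes: Hist1h3f (2.78 ± 0.70), Hist1h3e (1.88 ± 0.42), Hist1h3d (1.61 ± 0.23), Hist1h3a (1.52 ± 0.29), Hist1h3i (1.34 ± 0.36) and Hist1h3c (1.28 ± 0.28). Without replicate 2 this count was 1. At day 0 the values at 360 min rest on 3 to 41 raw counts per gene and library in 7E. The sum of the 9 genes at day 0 was at 0.649% by 120 min and 0.258% by 360 min in 5F, and at 1.61% and 0.300% in 7E. In 5F this left little decline to measure at day 0, on few reads. Whether the later decline differed between the clones was not tested. Medians of the other families in 7E were 0.63 for H1, 1.24 for H2A, -0.35 for H2B and 0.46 for H4, beside 1.46 for H3.

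Hist1h3f in 7E at day 4 had normalised counts of 156, 164 and 155 at 120 min, 74.4, 102 and 298 at 240 min, and 164, 330 and 134 at 360 min. It thus showed no steady decline after 120 min, and 1 library stood apart from its replicates at each of the later times. Hist1h3e (132, 177 and 283 at 240 min) and Hist1h3g were high in the same libraries. Over the 47 libraries, deviations from the group means correlated at 0.788 between Hist1h3e and Hist1h3g and at 0.673 between Hist1h3e and Hist1h3f.

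A single slope of log level on time was also fitted over mock, 120, 240 and 360 min. Since most of the fall came before 120 min, 1 slope describes the course poorly. Its half-lives are longer in every group than those from mock and 120 min. The difference in slope passed the threshold in 5F for 3 members, against 0.133% of all genes: Hist1h3i (1.15 ± 0.20 log2 per hour), Hist1h3a (1.11 ± 0.19) and Hist1h3d (1.05 ± 0.19). With any replicate number left out, 0 of 9 passed by edgeR. In 7E, 6 members passed, against 0.399% of all genes: Hist1h3f (1.06 ± 0.26), Hist1h3g (0.94 ± 0.22), Hist1h3c (0.90 ± 0.18), Hist1h3a (0.86 ± 0.13), Hist1h3i (0.86 ± 0.17) and Hist1h3d (0.79 ± 0.14), and 1 with any replicate number left out. Half-lives from the slope over all times were 42.3 to 48.5 min at day 0 and 58.8 to 104.8 min at labelled day 4 in 5F, and 42.6 to 51.3 min and 59.4 to 116.3 min in 7E. From mock and 120 min alone, the median half-life of the 9 was 16.5 min at day 0 and 30.6 min at labelled day 4 in 5F, and 20.0 and 30.6 min in 7E. Hist1h3a went from 15.4 to 56.6 min in 5F and from 23.6 to 55.2 min in 7E on this measure.

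To compare the RNAs that decay factors contact across the transcriptome, the study used CRAC, in which a tagged protein is crosslinked to RNA in living cells and the attached fragments are sequenced. The authors' deposited values give, for each of 7240 mRNAs, the share of pooled and scaled counts found with SKIV2L (6 libraries in this series), XRN1 (5) and MTR4 (3), the helicase of the nuclear exosome, so the shares sum to 1 and carry no replicate error. AVEN (3) is given relative to the sum of the others. The SKIV2L share of the 8 H3 mRNAs listed was 0.82 for Hist1h3i, 0.771 for Hist1h3e, 0.703 for Hist1h3f, 0.699 for Hist1h3c, 0.654 for Hist1h3a, 0.592 for Hist1h3g, 0.474 for Hist1h3b and 0.316 for Hist1h3d. All were above the median mRNA (0.267), with ranks from 8 (Hist1h3i) to 2794 (Hist1h3d), and their median of 0.676 compares with 0.531 for 41 other replication-dependent histone mRNAs. Hist1h3h has no value in the table, and Hist2h3b had 0.317.

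**Figure D5:**
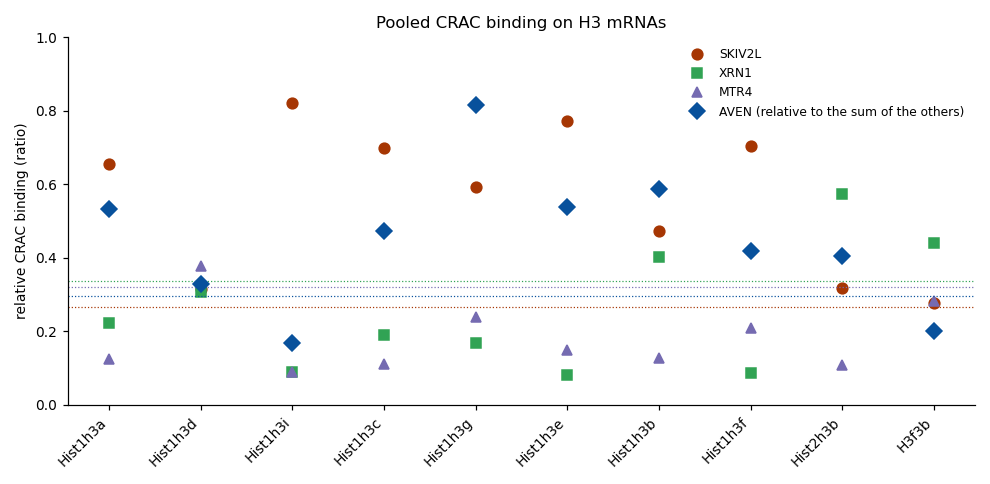
Relative CRAC binding (authors' pooled ratios, no error available) of SKIV2L, XRN1, MTR4 and AVEN on 8 H3 mRNAs, Hist2h3b and H3f3b; dotted lines are the medians of 7240 mRNAs in the same colours. SKIV2L points stand highest among the 3 shares for all Hist1 members but Hist1h3d, where MTR4 (0.378) is higher, while for Hist2h3b and H3f3b the XRN1 points (0.574 and 0.44) do.

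The XRN1 share of the H3 mRNAs was 0.0805 to 0.401, highest for Hist1h3b, against a median mRNA of 0.337, and the MTR4 share was 0.0892 to 0.239 apart from Hist1h3d. The AVEN ratio was 0.816 for Hist1h3g, 0.588 for Hist1h3b, 0.538 for Hist1h3e, 0.532 for Hist1h3a, 0.474 for Hist1h3c, 0.419 for Hist1h3f, 0.329 for Hist1h3d and 0.167 for Hist1h3i, against a median mRNA of 0.295, so the member with the highest SKIV2L share had the lowest AVEN ratio. Across the 8 genes the SKIV2L share did not rank with the percentage left at 120 min after 4OHT (rho -0.14 in 5F and -0.17 in 7E): Hist1h3d was second in retention and last in SKIV2L share. These ratios and the retention values share the same partly unique sequences, and the reads for each were filtered in different ways.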

How the data were processed

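RNA-seq libraries were prepared after ribosomal RNA depletion with a kit that does not mark strand. The authors mapped the reads with STAR 2.5.0a to GRCm38 with ERCC sequences added, kept reads that map to 1 place and deposited counts per gene (Gencode M16) without normalization. The authors' deposited CRAC values are ratios of pooled counts, and their deposited RPKM values, from RNA-seq of the tagged lines, are not reported. The authors' deposited fold changes, p-values and half-lives were not used. Columns of per-sample values left unused numbered 0.

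Counts were scaled by median-ratio size factors, separately at each time, and by 1 ERCC-based factor for each time (0.6489, 0.5311 and 0.4375 at 120, 240 and 360 min), from the 34 ERCC sequences with a mean over 50 counts. This factor cancels in each comparison of days or clones. Tests used edgeR 4.0.16 in R 4.3.3 (quasi-likelihood, filterByExpr, Benjamini-Hochberg over all genes tested), with the SE taken as the log2 difference over the root of F. Half-lives were fitted to ln(normalised count + 1). Of the genes, 53274 had a symbol. Gene models were of Gencode M21 on the same build, and stem-loops, RefSeq products and unique 50-base windows were read from GRCm38. The genes described are the 9 of the list, other H3 genes for comparison, and the 5 genes most like their sum plus 3 outside genes with Hist1 to Hist4 symbols. Members and lists were chosen with earlier results of these data known. Alternatives were scaling by each library's own ERCC sequences or TMM, DESeq2 1.42.0, limma 3.58.1, other filters, a replicate block, and each replicate number or time point left out; leaving out 2 libraries was added after seeing the data. The lowest chi-square per gene between replicate libraries was 2.59, so none was treated as a copy. On simulated data, with 191 changed genes of 17947 at a log2 change of 1, the test of retention at 120 min in 5F recovered 54.5%, so smaller changes are often missed. These counts were drawn around each gene's mean over the libraries, with no fall over time. The share recovered therefore does not describe the H3 genes, which had few reads at 120 min at day 0.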

Additional observations from a re-analysis of the deposited data

Results flagged for a closer look

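For 6 results the effect of 4OHT differed between the clones by the test of the interaction in edgeR. The difference in mock level was smaller in 7E than in 5F for Hist1h3i (-0.41), Hist1h3d (-0.35) and Hist1h3b (-0.23, log2). The gain in retention at 120 min was smaller in 7E for Hist1h3a (-2.75), Hist1h3d (-2.08) and Hist1h3b (-1.42). Hist1h3d and Hist1h3b are in both sets. At 120 min the day 4 libraries of the clones overlapped for Hist1h3a, Hist1h3d and Hist1h3b, and at day 0 all those of 7E were higher.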

How the results depend on the processing

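The change in retention at 120 min with 4OHT was stable within each clone when each replicate number was left out. It was called for 9 of 9 in 5F and 8 of 9 in 7E (9 without the 2 libraries of 7E at day 4, a setting chosen after seeing the data). The mock difference between clones at day 0 was as stable (8 of 9), whereas the tests of retention between clones were less so. Scaling by each library's own ERCC sequences gave 9 members with a changed mock level in 7E, all lower, and 9 with a different response between clones, 2 for the later fall in 7E and 1 for the difference in gain between clones. The mock changes in 7E then reversed for Hist1h3a (-0.34), Hist1h3c (-0.96), Hist1h3d (-0.86), Hist1h3e (-0.89), Hist1h3f (-0.79), Hist1h3g (-0.89) and Hist1h3i (-0.93), because the median gene moved by -1.11. The slopes in 5F were called for 1 member by DESeq2 and 0 by limma (1 by limma in 7E), for 8 without 120 min, 0 without 240 min (1 in 7E) and 0 without the mock, where Hist1h3a (-0.34) and Hist1h3d (-0.033) reversed. Without a filter on low counts, 5 members differed between clones in mock response, 6 in retention at day 0 and 6 in the gain.

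With each replicate number left out, counts ran from 7 to 9 for the mock change in 5F, 1 to 7 in 7E, 8 to 8 between clones at day 0, 0 to 3 for the difference in response, 0 to 0 for slopes in 5F and 1 to 1 in 7E, 2 to 3 for retention at day 0 between clones, 1 to 2 for the difference in gain, and 0 to 0 and 1 to 5 for the later fall in 5F and 7E. The cause was not tested, and each of these fits also had fewer libraries. Deviations of same-numbered libraries of 1 clone and time correlated at -0.40 to 0.63 (median 0.15, 13 of 23 pairs over 0.1). For different numbers the median was -0.17 (16 of 46 over 0.1). Not every pair was over 0.1, and the numbers were not taken as pairs. Same-numbered libraries of the 2 clones at 1 day and time were not summarised. At day 4 and 120 min their sums of gene over ERCC counts ran alike (180, 214 and 220 in 5F, 92.0, 115 and 119 in 7E). Those of the day 0 mock did so less (349, 363 and 334, and 312, 322 and 322). A batch shared by number was not tested beyond the replicate block, and the tests between clones took libraries as independent. With a replicate block the counts were 8, 5, 8 and 2 for mock levels, 3 and 4 for slopes, 9, 8, 3 and 3 for retention and 0 and 5 for the later fall. Of the fitted changes of single members, 1038 kept their direction and side of the threshold, 41 became called, 90 lost the call and 9 reversed, and of the half-lives 3 moved by more than their spread and 213 did not. Low counts at day 0 limit the precision of every ratio to it.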
